A study of Mus musculus with 16 samples.

Results

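Trim33, Trim24 and Trim28, which encode transcriptional intermediary factor 1 (TIF1) proteins, were followed in splenic dendritic cells (DCs) with and without conditional deletion of Trim33. They were taken by gene ID (94093 for Trim33, 21848 for Trim24, 21849 for Trim28), and all 3 were found among the 17128 genes listed for plasmacytoid DCs (pDCs) and the 17721 genes listed for conventional DCs (cDCs). Bulk RNA-seq had been made on 16 libraries from mice of 6 to 8 weeks, with 3 libraries for each genotype in pDCs, 2 in cDC1s and 3 in cDC2s. WT mice were Trim33 fl/fl and cKO mice (labelled KO) were Trim33 fl/fl Itgax-Cre, so that both carried the floxed alleles and only the cKO mice carried Cre, driven by Itgax, the gene of CD11c. Without a Cre-only group, the presence of Cre and the loss of Trim33 cannot be told apart. Each library pooled several mice, and more cKO than WT mice went into a pool. The subsets had been sorted as CD11c+ SiglecH+ cells (pDCs), as CD11c+ SiglecH- MHC II+ CD24+ CD172a- cells (cDC1s) and as CD11c+ SiglecH- MHC II+ CD24- CD172a+ cells (cDC2s).

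TIF1 proteins are nuclear cofactors that share an N-terminal RING, B-box and coiled-coil part with the other TRIM proteins and end in a PHD finger and a bromodomain. TRIM33 (TIF1γ) acts with SMAD proteins in the TGF-β pathway and binds enhancers together with the myeloid factor PU.1. TRIM24 (TIF1α) is a cofactor of nuclear receptors and a negative regulator of p53, and TRIM28 (TIF1β, KAP1) is the corepressor that KRAB zinc finger proteins bring to DNA, where it recruits histone methylation and deacetylation. TRIM24, TRIM28 and TRIM33 can be purified together in complexes, so the levels of Trim24 and Trim28 were compared where Trim33 was deleted.

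Whether reads of these genes could be mistaken for each other bears on every value below, because the reads were 50 bases long. In the RefSeq annotation of GRCm38.p6, Trim33 lies on chromosome 3 (103279293 to 103358770), Trim24 on chromosome 6 (37870811 to 37968445) and Trim28 on chromosome 7 (13024152 to 13031032), all on the plus strand. Their longest RefSeq-matched transcripts in GENCODE vM21 have 20, 19 and 17 exons and 8875, 4042 and 3245 bases, of which 3420, 3153 and 2502 are coding. None of the 8826, 3993 and 3196 windows of 50 bases in these transcripts occurred in a transcript of any other gene on either strand. The closest windows are shown because they are where reads of paralogs are most alike, with identical bases in capitals. For Trim33 and Trim24 they lie in the coding part of exon 1, at chr3:103280334-103280383 and chr6:37871296-37871345 (plus strand, GRCm38), in the stretch that encodes the RING domain.
Trim33: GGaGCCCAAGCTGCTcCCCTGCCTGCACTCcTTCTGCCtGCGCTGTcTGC
Trim24: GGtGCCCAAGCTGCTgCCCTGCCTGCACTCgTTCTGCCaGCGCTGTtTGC
These windows differed at 5 of 50 bases, and 3 of the 8826 windows of Trim33 came that close to Trim24. The closest windows of Trim24 and Trim28 lie in exon 3 of both genes (chr6:37908220-37908269 and chr7:13025647-13025696) and are also coding.
Trim24: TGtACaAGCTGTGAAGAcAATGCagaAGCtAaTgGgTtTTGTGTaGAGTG
Trim28: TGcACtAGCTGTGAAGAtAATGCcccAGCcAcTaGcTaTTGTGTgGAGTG
They differed at 12 of 50 bases, and the closest windows of Trim33 and Trim28 differed at 14. No read that matched these longest transcripts perfectly could therefore have been shared between the members. Windows found only in their shorter transcripts were not compared. The study's primers for Trim33 mRNA mark the part of the transcript that its PCR measured.
Forward: gagtctgttggaacatctggtcagcg
Reverse: ggcctgtgatatcattctgctgctgt
The forward primer crosses from exon 3 into exon 4 and the reverse primer lies in exon 7 (chr3:103326120-103326145). The product has 424 bases, 4.78% of the transcript, whereas the deposited values count reads over all 20 exons. By PCR and by Western blot of sorted splenic pDCs, cDC1s and cDC2s, the study reported that Trim33 inactivation was efficient in peripheral DCs. Which exons Cre removes is not given in the sources used here, and a transcript that lost some exons still yields reads from the others, so a residual Trim33 level is not the share of cells that kept the gene.

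All levels are TPM, a transcript abundance that is divided by length and scaled to the same total in each library, so that genes can be compared. The tables for pDCs and cDCs had been normalized separately, so levels of pDCs and cDCs are set side by side without a test. In each of the 16 libraries Trim28 had the highest level, Trim24 the next and Trim33 the lowest. In WT libraries Trim28 reached 134.4 ± 2.74 TPM in pDCs (SD, n = 3), 124.7 ± 3.42 in cDC1s (SD, n = 2) and 106.0 ± 26.4 in cDC2s (SD, n = 3), above 87.3% or more of the genes tested in each. WT Trim33 lay near the middle, above 44.3% to 45.6% of the genes tested.

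Trim24 set pDCs apart from cDCs. Its WT level was 79.2 ± 1.82 TPM in pDCs (SD, n = 3), against 25.7 ± 0.691 in cDC2s (SD, n = 3) and 20.2 ± 0.672 in cDC1s (SD, n = 2). In descending order the 6 groups were cKO pDC, WT pDC, cKO cDC2, WT cDC2, cKO cDC1 and WT cDC1, and the libraries of no group overlapped those of its neighbours. For Trim33 the order was WT pDC, WT cDC2, WT cDC1, cKO pDC, cKO cDC1 and cKO cDC2, and only cKO pDC and cKO cDC1 did not overlap among neighbours. The highest cKO pDC library (16.49 TPM) held more Trim33 than the lower WT cDC1 library (15.47 TPM). For Trim28 the order was cKO cDC1, cKO cDC2, cKO pDC, WT pDC, WT cDC1 and WT cDC2. There cKO cDC1 stood apart from its neighbour, cKO cDC2 overlapped cKO pDC, and the WT cDC1 libraries fell within the range of WT cDC2. Trim66, the fourth TIF1 gene of the mouse, was at 0 to 0.13 TPM, about 0 to 10 reads per library, and was too low to be tested.

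**Figure D1:**
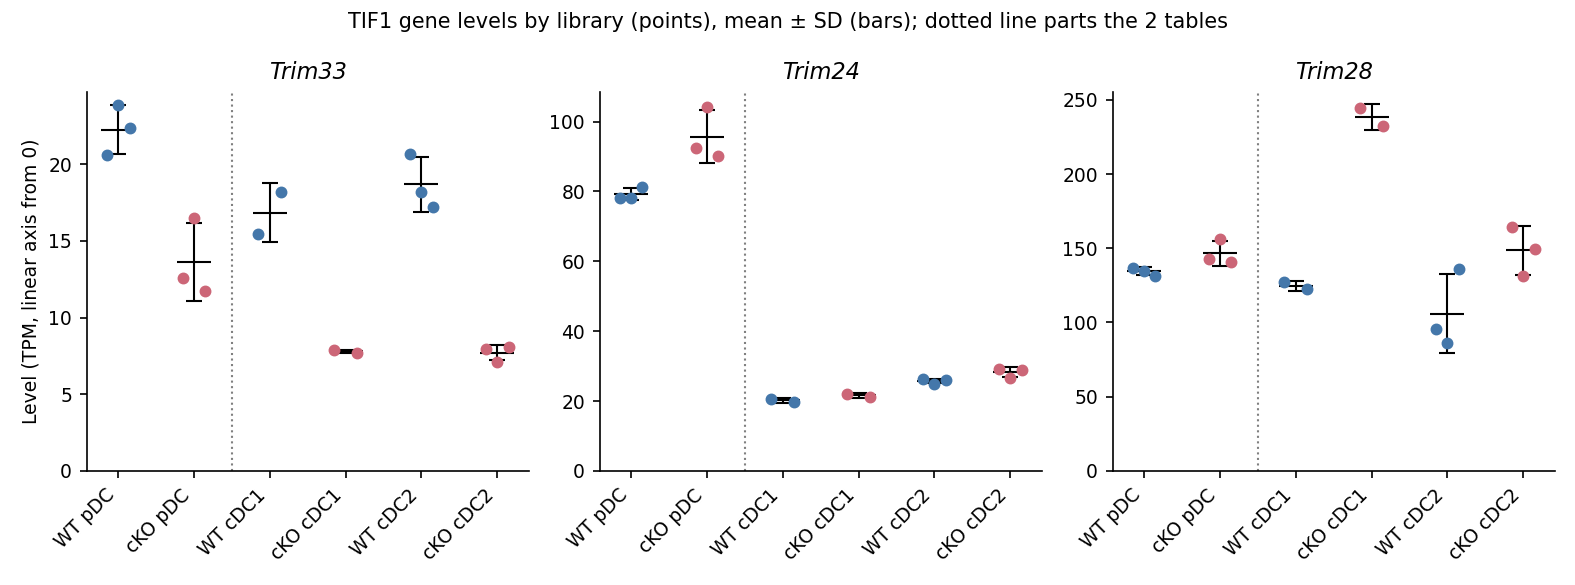
Levels of Trim33, Trim24 and Trim28 in TPM (linear axes from 0), by group. Points are libraries and bars are mean ± SD (n = 3, or 2 for cDC1s); Trim33 fell to 7.13 to 8.07 TPM in cKO cDCs but to 11.73 to 16.49 TPM in cKO pDCs, and the highest Trim28 values, 232.1 and 244.4 TPM, are those of the cKO cDC1s.

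Residual Trim33 was examined first, since its deletion defines the cKO groups. In pDCs the WT libraries 1 to 3 held 20.6, 23.83 and 22.33 TPM and the cKO libraries 12.61, 16.49 and 11.73 TPM. The groups did not overlap, as was so for lower values in cKO libraries of 16.7% of the genes in pDCs, 24.1% in cDC1s and 19.2% in cDC2s, and single cKO libraries kept from 52.7% to 74.1% of the WT mean. In cDC1s the WT libraries held 15.47 and 18.18 TPM and the cKO libraries 7.88 and 7.71 TPM, 45.8% to 46.8% of the WT mean. In cDC2s the WT libraries held 20.64, 18.19 and 17.21 TPM and the cKO libraries 7.93, 7.13 and 8.07 TPM, 38.2% to 43.2% of the WT mean. Each cKO pDC library thus kept a larger share than any cKO cDC library. The cKO pDC libraries also varied most, with an SD of 18.6% of the mean, against 1.54% in cKO cDC1s and 6.58% in cKO cDC2s. At the estimated depth the lowest cKO libraries held about 906 Trim33 reads in pDCs, 688 in cDC1s and 678 in cDC2s, for which counting error alone would be 3.32%, 3.81% and 3.84%.

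The cKO effect was tested with limma on log2(TPM + 1), and calls required both an adjusted p no greater than 0.01 and a log2 fold change of 0.5 or more in either direction. Trim33 was called lower in cDC1s (log2 fold change −1.02, 95% CI −1.30 to −0.73, adjusted p 3.49e-04), where 22.4% of 11411 genes were called and 6.56% were called lower. It was called lower in cDC2s (−1.17, 95% CI −1.41 to −0.94, adjusted p 1.26e-04), where 7.15% of the genes were called and 3.56% were called lower. In pDCs its log2 fold change was −0.68 (95% CI −0.98 to −0.38), which was not called (adjusted p 0.0301) in a comparison that called 1.05% of 11299 genes. WT and cKO pDC libraries of the same number deviated together, and with the replicate number as a block Trim33 was called in pDCs as well (adjusted p 0.00361). Only 91 of the 11299 genes had a lower log2 fold change than Trim33 in pDCs, and 155 of 11411 had one in cDC2s and 507 in cDC1s. The cDC1 effect minus the cDC2 effect was 0.16 (95% CI −0.22 to 0.53, adjusted p 0.539), so no difference in the depth of the loss was detected between the cDC subsets. The difference from pDCs was not tested. In bulk libraries a larger share of cells that keep the gene and more of its RNA per cell cannot be told apart.

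Itgax, whose promoter drives Cre, was lowest in pDCs, where WT libraries held 211.8 ± 14.2 TPM (SD, n = 3), against 507.1 ± 43.5 in cDC1s (SD, n = 2) and 920.7 ± 162.0 in cDC2s (SD, n = 3). Across the subsets the residual Trim33 share fell from 61.2% in pDCs to 46.3% in cDC1s and 41.3% in cDC2s while the WT Itgax level rose, an order over 3 subsets that was not tested. Itgax itself was not called in any subset, with log2 fold changes of 0.34 in pDCs (adjusted p 0.0338), 0.06 in cDC1s (0.802) and 0.39 in cDC2s (0.0842).

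Trim24, the closest paralog of Trim33 in the windows above, showed small differences. In pDCs the WT libraries held 78.18, 78.2 and 81.35 TPM and the cKO libraries 92.55, 104.25 and 90.08 TPM. Every cKO library lay above every WT library, which held for 10.8% of the genes tested in pDCs. The log2 fold change was 0.27 (95% CI 0.10 to 0.43), not called at an adjusted p of 0.0782, nor with the replicate block (adjusted p 0.0359). In cDC1s the WT libraries held 20.7 and 19.75 TPM and the cKO libraries 22.14 and 21.07 TPM (log2 fold change 0.09, 95% CI −0.13 to 0.31, adjusted p 0.495). In cDC2s the WT libraries held 26.17, 24.93 and 26.08 TPM and the cKO libraries 29.25, 26.66 and 28.96 TPM (0.13, 95% CI −0.05 to 0.31, adjusted p 0.279). In both cDC subsets the cKO libraries again lay above the WT libraries without overlap, as did those of 52.1% of the genes in cDC1s and of 16.3% in cDC2s. The cDC1 value changed sign, to −0.07, with median-of-ratios values and after quantile normalization alike. The intervals leave room for rises of up to 0.43, 0.31 and 0.31 on the log2 scale in pDCs, cDC1s and cDC2s.

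Trim28 was the member that rose, in cDC1s. The WT cDC1 libraries held 127.1 and 122.26 TPM and the cKO libraries 244.42 and 232.11 TPM, 191.1% of the WT mean. The log2 fold change of 0.93 (95% CI 0.51 to 1.35) was called (adjusted p 0.00361), in a comparison that called 15.8% of the genes higher. Across the 11411 genes tested in cDC1s the median was 0.17 on the log2 scale as deposited and 0.02 once rescaled by median-of-ratios, and Trim28 stood 0.76 above the median as deposited. It was called under all 4 scalings (TPM, FPKM, median-of-ratios and quantile), with log2 fold changes of at least 0.76. Leaving out either of the WT or either of the cKO cDC1 libraries, which leaves 1 library in that group, ended the call (adjusted p 0.0201 to 0.0333) with log2 fold changes of 0.89 to 0.97.

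In cDC2s the WT libraries held 95.93, 86.07 and 135.96 TPM of Trim28 and the cKO libraries 164.41, 131.6 and 149.67 TPM. WT library 3 lay above cKO library 2, so the groups overlapped. The log2 fold change of 0.51 (95% CI 0.16 to 0.85) was not called (adjusted p 0.0437), and without WT cDC2 library 3 it was 0.70 and was called (adjusted p 0.00224). In pDCs the WT libraries held 136.92, 134.92 and 131.5 TPM and the cKO libraries 142.68, 156 and 140.97 TPM. These groups did not overlap, but the log2 fold change of 0.12 (95% CI −0.01 to 0.26) was not called (adjusted p 0.287). The difference between the effects in cDC1s and cDC2s, 0.42 (95% CI −0.12 to 0.96, adjusted p 0.262), was not called either, so the rise was not shown to differ between the cDC subsets.

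**Figure D2:**
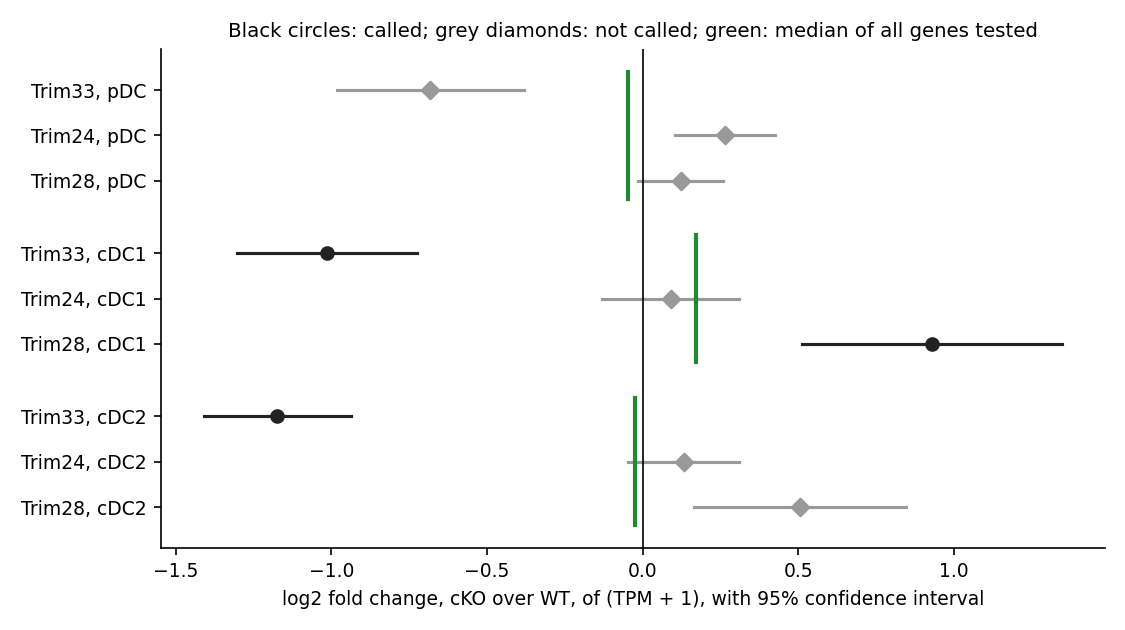
The log2 fold change of cKO over WT for each gene and subset, on the log2(TPM + 1) scale, with 95% confidence intervals from limma. Black circles were called and grey diamonds were not; the green lines are the medians over all genes tested, −0.05 in pDCs, 0.17 in cDC1s and −0.03 in cDC2s, and Trim28 in cDC1s, at 0.93, stands opposite to Trim33, at −1.02.

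**Figure D3:**
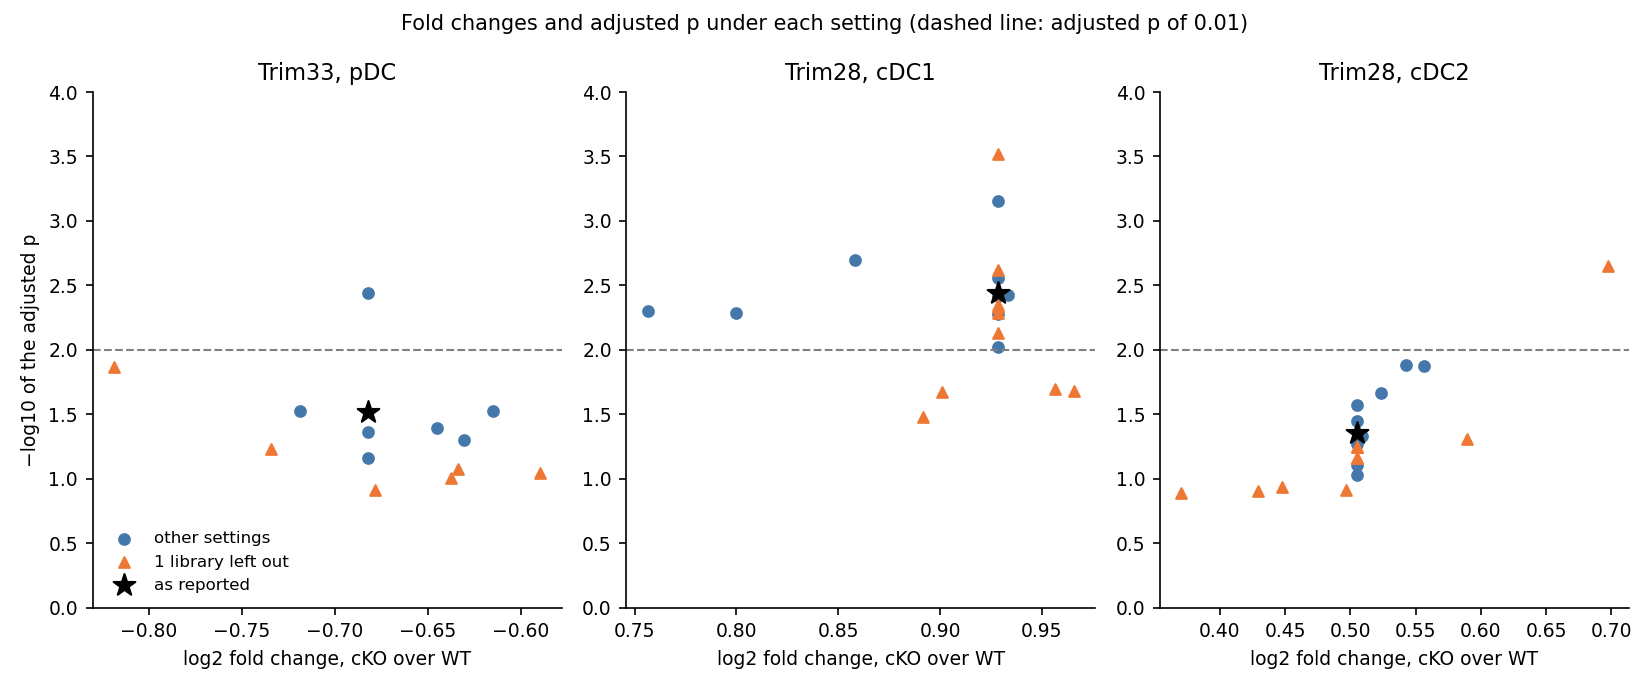
Log2 fold change of cKO over WT (x axis) against −log10 of the adjusted p (y axis) under each setting, for Trim33 in pDCs and Trim28 in cDC1s and cDC2s. Stars are the values as reported, triangles fits that left out 1 library, circles other settings, and the dashed line marks the p threshold; 1 circle passes for Trim33 in pDCs (the replicate block), 4 triangles miss for Trim28 in cDC1s and 1 triangle passes for Trim28 in cDC2s.

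Between the cDC subsets of the same genotype, Trim33 did not differ beyond the spread (WT cDC1 against WT cDC2, log2 fold change −0.14, 95% CI −0.41 to 0.12; cKO, 0.02, 95% CI −0.25 to 0.28). Trim24 was lower in cDC1s than in cDC2s by a log2 difference of −0.33 in WT (adjusted p 0.0115) and −0.37 in cKO libraries (adjusted p 0.00699). The first missed the p threshold and both missed the fold threshold, so neither was called. Trim28 showed 0.26 in WT libraries (95% CI −0.12 to 0.64, adjusted p 0.236) and was called higher in cKO cDC1s than in cKO cDC2s (0.68, 95% CI 0.30 to 1.07, adjusted p 0.00855). That call was lost in 8 of the 10 fits that each left out 1 library. These 2 comparisons called 31.7% and 28.3% of the genes (10.9% and 14.5% higher in cDC1s), and the comparison of the cDC1 and cDC2 effects called 2.56% (1.21% with the higher effect in cDC1s).

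The make-up of the summed Trim33, Trim24 and Trim28 TPM is given as a description. In WT libraries Trim33 took 8.74% to 10.1% of the sum in pDCs, 9.48% to 11.3% in cDC1s and 9.60% to 14.5% in cDC2s. In cKO libraries it took 4.83% to 5.96%, 2.87% to 2.96% and 3.93% to 4.32%. The mean of the sum was not lower in cKO than in WT libraries of any subset. It was 235.9 ± 0.910 TPM in WT and 255.8 ± 18.3 in cKO pDCs (SD, n = 3 each), 161.7 ± 2.18 and 267.7 ± 9.58 in cDC1s (SD, n = 2 each), and 150.4 ± 25.9 and 184.6 ± 18.2 in cDC2s (SD, n = 3 each). In cDC1s Trim33 lost 9.03 TPM while Trim28 gained 113.6 TPM between the group means. Transcripts of Trim28 outnumbered those of Trim33 by 6.72 and 8.22 to 1 in the WT cDC1 libraries and by 31.0 and 30.1 to 1 in the cKO cDC1 libraries. Trim24 supplied 33.0% to 37.7% of the sum in every pDC library, WT or cKO, and at most 19.3% in any cDC library.

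**Figure D4:**
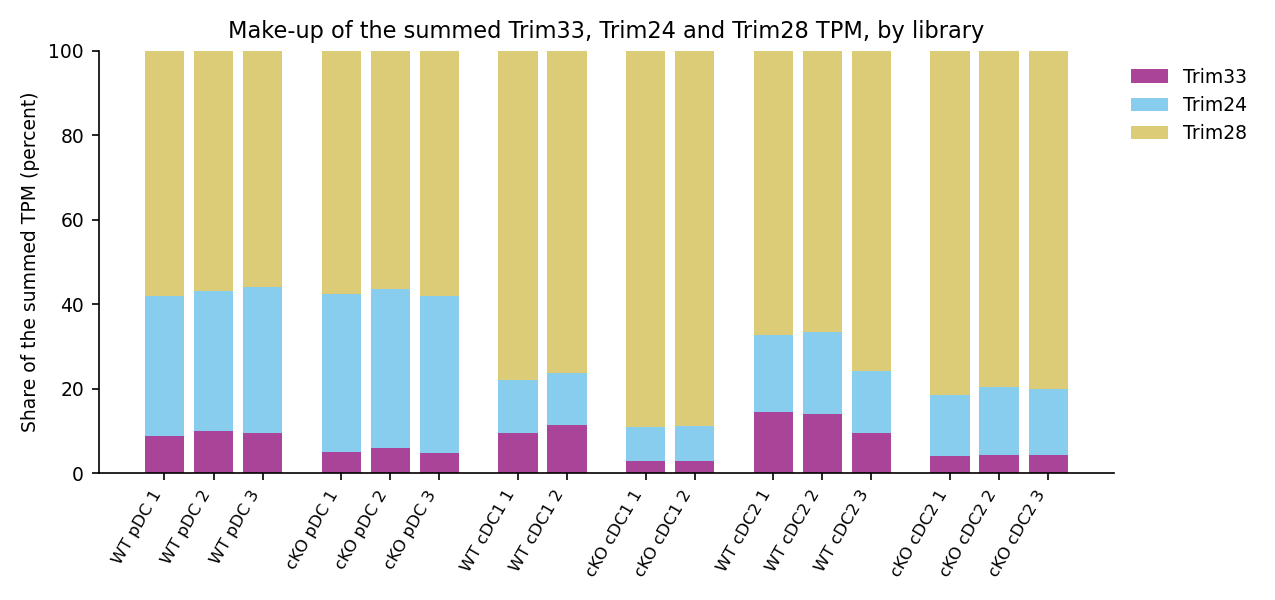
Share of each gene in the summed Trim33, Trim24 and Trim28 TPM, in percent, 1 bar per library (WT and cKO, replicate number at the end of each label). The Trim33 share at the foot of the bars fell from 9.48% to 11.3% in WT cDC1s to 2.87% to 2.96% in cKO cDC1s, and the Trim24 share is largest in pDCs.

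Genes of the proteins that act with each TIF1 member were examined next. Of 14 TRIM33 partners, 3 were called in cDC1s, beside 22.4% of all genes, 1 in cDC2s, beside 7.15%, and 0 in pDCs, beside 1.05%. By limma, 1 partner in pDCs had an unadjusted p under 0.05, beside 2352 of all 11299 genes. The list was thus called about as often as all genes in both cDC subsets. In cDC1s Smad3, which carries TGF-β signals to the nucleus, fell from 12.45 and 10.71 TPM to 5.39 and 4.87 TPM (log2 fold change −1.03, adjusted p 0.00540). Tgfbr1, the type I TGF-β receptor, fell from 18.03 and 19.55 to 11.47 and 9.53 TPM (−0.79, adjusted p 9.05e-04). Both are called lower in the same subset. In cDC2s neither was called, and Smad3 stood at 3.68 ± 0.375 TPM in WT and 6.01 ± 1.80 TPM in cKO libraries (SD, n = 3 each). Without 1 library of the cDC1 groups Smad3 lost its call in each of the 4 fits, and Tgfbr1 lost it without cKO cDC1 library 2. Parp1, whose product makes the poly(ADP-ribose) that draws TRIM33 to damaged DNA, rose in cDC1s from 49.66 and 50.93 to 124.54 and 114.29 TPM (1.23, adjusted p 1.62e-04). It was also called in cDC2s (0.52, adjusted p 0.00976), a call that 4 of 19 alternatives kept. The TRIM33 partners had median log2 fold changes of −0.11 in pDCs, 0.10 in cDC1s and 0.06 in cDC2s, beside −0.05, 0.17 and −0.03 over all genes. Spi1, the gene of PU.1, was at 552.8 and 603.7 TPM in WT and cKO cDC1s (adjusted p 0.479) and was called in no subset.

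Of 21 TRIM28 silencing partners tested in cDC1s, 7 were called higher and 1 lower, beside 15.8% and 6.56% of all genes. The 5 with the largest changes were Dnmt1, Zfp57, Uhrf1, Cbx5 and Cbx3. Dnmt1, the maintenance DNA methyltransferase, rose from 40.81 and 42.95 to 136.58 and 137.55 TPM (1.69, adjusted p 2.88e-04), and Uhrf1, which brings it to replicated DNA, from 39.53 and 41.01 to 118.35 and 116.03 TPM (1.52, adjusted p 2.60e-04). Cbx5, which encodes the heterochromatin protein HP1α, rose from 12.97 ± 0.559 to 36.3 ± 7.99 TPM (SD, n = 2 each; 1.40, adjusted p 5.53e-04). Cbx3, which encodes HP1γ, rose by 0.83 (adjusted p 0.00330) but was called under none of the other 3 scalings. Zfp57, a KRAB zinc finger gene that guards imprints, fell from 9.35 and 5.92 to 1.69 TPM in both cKO libraries (−1.65, adjusted p 3.44e-04). Of the 7 higher calls, 3 were left by median-of-ratios scaling, by quantile normalization, and by leaving out cKO cDC1 library 1, cKO cDC1 library 2 or WT cDC1 library 1. The TRIM28 partners had a median of 0.38 in cDC1s, or 0.21 with median-of-ratios values.

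In cDC2s 2 TRIM28 partners were called higher and 1 lower, beside 3.59% and 3.56% of all genes. These were Uhrf1 (1.01, adjusted p 0.00182), Dnmt1 (0.95, adjusted p 0.00454) and, lower, Zfp57 (−0.83, adjusted p 0.00932), calls kept by 19, 11 and 5 of 19 alternatives. WT cDC2 library 3, which was highest in Trim28, was also the highest WT cDC2 library in Dnmt1 (53.58 TPM, against 33.35 and 33.75) and Uhrf1 (65.99 TPM, against 41.53 and 44.28). In pDCs Uhrf1 was called higher, from 2.84, 2.19 and 1.59 TPM to 23.36, 15.15 and 9.83 TPM (2.36, adjusted p 0.00630), and Chd3, a NuRD remodeller that binds TRIM28, was called lower, from 38.74, 32.6 and 34.04 to 19.99, 19.76 and 15.99 TPM (−0.89, adjusted p 0.00659). These 2 of 20 partners tested in pDCs stand beside 0.814% and 0.239% of all genes. Leaving out 1 pDC library ended the call of Chd3 in 6 of 6 fits and that of Uhrf1 in 5 of 6. The medians of the list in pDCs and cDC2s were −0.05 and 0.03.

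Of 12 TRIM24 partners, nuclear receptors and p53 pathway genes, 10 were tested in each subset. In cDC1s 3 were called higher and 0 lower, beside 15.8% and 6.56% of all genes, namely Esr1 (1.34, adjusted p 0.00176), Rarg (1.29, adjusted p 2.85e-04) and Thra (0.98, adjusted p 0.00410). They encode an estrogen, a retinoic acid and a thyroid hormone receptor. Their levels stayed low, with Rarg the highest at 10.3 ± 0.735 TPM in cKO cDC1s (SD, n = 2), and Esr1 went from 0.15 and 0.29 TPM in WT, close to the level of 3 reads, to 1.8 and 2.39 TPM. Thra lost its call with quantile-normalized and with median-of-ratios values and in each fit without a cDC1 library, and Esr1 lost it in 3 of those 4 fits. In cDC2s Esr1 alone was called, beside 3.59% of all genes called higher, from 1.64 ± 0.744 to 5.30 ± 0.303 TPM (SD, n = 3 each; 1.29, adjusted p 0.00184). In pDCs 0 were called (by limma, 2 had an unadjusted p under 0.05, beside 2352 of all 11299 genes). The medians of the list were −0.04, 0.29 and 0.24 in pDCs, cDC1s and cDC2s.

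**Figure D5:**
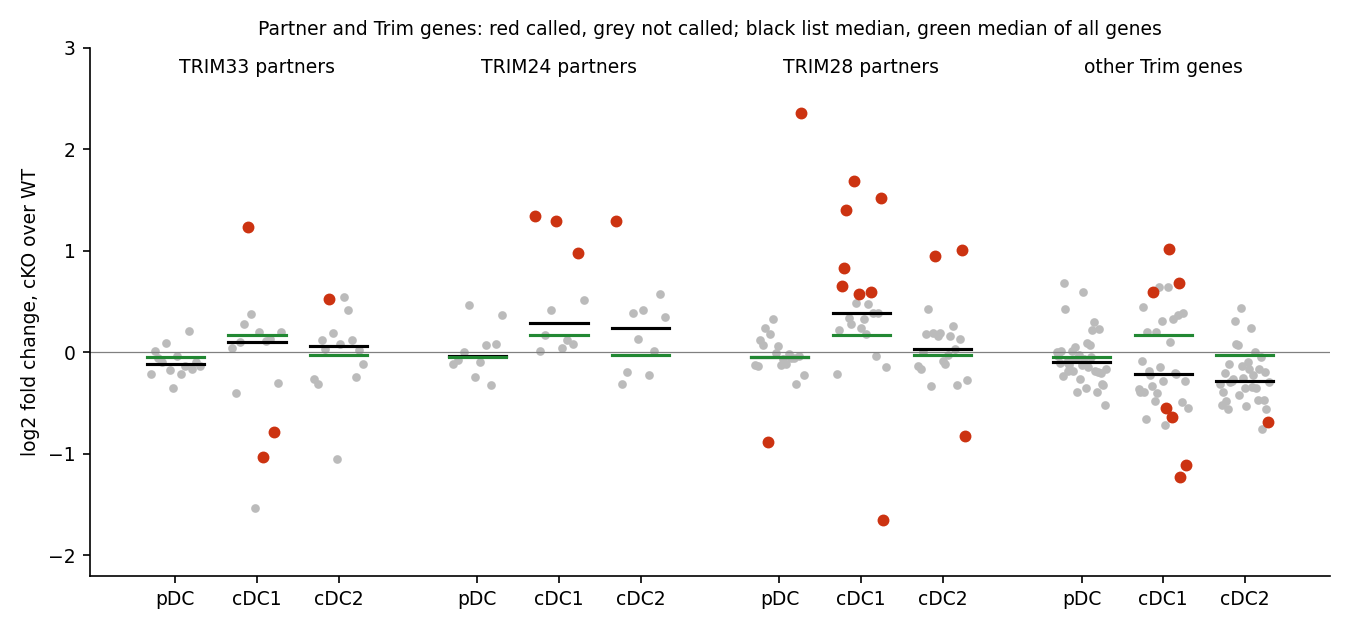
The log2 fold change of cKO over WT for each tested TRIM33 partner, TRIM24 partner, TRIM28 partner and other Trim gene, by subset. Red points were called, grey points were not, black lines are list medians and green lines the medians over all genes. In cDC1s 7 TRIM28 partners were called higher and 1 lower, beside 15.8% and 6.56% of all genes. With median-of-ratios values these calls were 3 and 1. The medians of the other Trim genes lie below those of all genes in cDC1s and cDC2s.

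Another 7 genes had been named by the study as targets of TRIM33, most of them also of PU.1. Bcl2l11 was singled out by the study on these libraries, so its direction is not independent evidence. For Cdkn2b, Egr2, Fcgr2b, Ifnb1 and Atp1b3 the study cites earlier reports in which TRIM33 opposes their PU.1-directed transcription. Of the 5 tested in pDCs, Atp1b3 (1.49, adjusted p 2.92e-05) and Fcgr2b (1.23, adjusted p 0.00257) were called higher, beside 0.814% of all genes. With the replicate block Bcl2l11 was called there too (1.06, adjusted p 0.00191, against 0.0132 without it), and without cKO pDC library 3 Fcgr2b was not. In cDC1s Atp1b3 (2.78, adjusted p 5.78e-06) and Bcl2l11 (0.90, adjusted p 0.00159) were called higher, and Bcl2l11 lost its call without cKO cDC1 library 1, cKO cDC1 library 2 or WT cDC1 library 2. In cDC2s Atp1b3 (4.76, adjusted p 3.12e-08), Fcgr2b (2.93, adjusted p 3.55e-05) and Bcl2l11 (2.17, adjusted p 6.38e-06) were called higher. In each cDC subset 6 genes of the list were tested, and 15.8% of all genes were called higher in cDC1s and 3.59% in cDC2s. Atp1b3 encodes a sodium pump subunit, Fcgr2b the inhibitory Fc receptor and Bcl2l11 the proapoptotic protein BIM. Lower calls were those of Egr2 (−4.05, adjusted p 9.22e-04) and Cdkn2b (−2.16, adjusted p 0.00440) in cDC1s and of Cdkn2b (−1.91, adjusted p 0.00671) in cDC2s. In cDC2s Egr2 just missed the p threshold (−2.41, adjusted p 0.01005). Its cKO cDC2 libraries held 13.95, 10.05 and 12.01 TPM, below the WT libraries at 188.18, 40.83 and 40.04 TPM. Egr2 and Cdkn2b, whose transcription TRIM33 opposes in the cited reports, were thus lower in cKO cDCs, unlike Atp1b3, Fcgr2b and Bcl2l11. Without cKO cDC1 library 1 the 2 higher and 2 lower calls in cDC1s became 1 and 0. Of 19 alternatives, 18 kept the call of Egr2, 7 kept that of Cdkn2b in cDC2s and 13 that in cDC1s, where its cKO libraries held 0.08 and 0.58 TPM. The rise of Atp1b3 was smallest in pDCs, the subset with the most residual Trim33. Fcgr2b and Bcl2l11 went the other way against cDC1s, at 1.23 and 1.06 in pDCs and 0.65 and 0.90 in cDC1s. These values come from fits of different tables and were not tested against each other. Irf8, whose transcription the study reported TRIM33 to promote in DC progenitors, was called in no subset. Its log2 fold changes were −0.08 in pDCs (adjusted p 0.540), 0.12 in cDC1s (0.796) and 0.81 in cDC2s (0.0624). The medians of the list were 1.06, 0.38 and 1.49 in pDCs, cDC1s and cDC2s.

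The other Trim genes were not raised as a group. Of 37 tested in pDCs 0 were called (by limma, 10 had an unadjusted p under 0.05, beside 2352 of all 11299 genes). Of 35 tested in cDC1s 3 were called higher and 4 lower, beside 15.8% and 6.56% of all genes, and in cDC2s 1 was called lower, beside 3.56%. The 5 largest changes in cDC1s were those of Trim6 (−1.23), Trim7 (−1.11), Trim37 (1.02), Trim59 (0.68) and Trim41 (−0.64), with adjusted p values of 2.37e-04 to 0.00851. Trim37 encodes a ubiquitin ligase of the centrosome, and its level went up from 13.1 ± 0.0283 TPM in WT to 27.6 ± 0.665 TPM in cKO libraries (SD, n = 2 each). Trim7 fell in cDC1s from 95.34 and 70.51 to 36.48 and 38.38 TPM, and was also called lower in cDC2s (−0.69, adjusted p 0.00681), a call that 8 of 19 alternatives kept. Median-of-ratios scaling gave 1 higher and 7 lower calls in cDC1s. The 3 higher and 4 lower calls became 1 and 0 without cKO cDC1 library 1, 2 and 1 without cKO cDC1 library 2, 1 and 1 without WT cDC1 library 1 and 1 and 2 without WT cDC1 library 2. Of 19 alternatives, 19 kept the call of Trim37, 18 that of Trim7, 14 that of Trim6, 12 that of Trim59 and 11 that of Trim41 in cDC1s. The medians were −0.10, −0.22 and −0.28 in pDCs, cDC1s and cDC2s.

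The genes whose levels followed each member most closely were ranked over the 16 libraries among 10619 genes, as Pearson's r of log2(TPM + 1) centred on the mean of each table. The libraries share genotype and subset differences and scaling, so these values only describe. For Trim33 the highest were Rassf3 (r = 0.954), Mier1 (0.946), Purg (0.945), Eml5 (0.943) and Zxdb (0.928). For Trim24 they were Itgam (0.940), Ifitm3 (0.926), Cd93 (0.926), Myo7a (0.920) and 6720473M11Rik (0.919). For Trim28 they were Psmd3 (0.987), Bop1 (0.983), Akt1 (0.981), Rrp12 (0.980) and Ppm1g (0.980).

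The labels of the subsets were checked against marker lists of 10 genes each. Summed pDC markers were 17130 TPM or more in pDC libraries and at most 332.1 in cDC libraries, and cDC1 markers were 4188 TPM or more in cDC1s and at most 648.8 elsewhere. The cDC2 markers were at 1902 to 2322 TPM in cDC2s and 83.3 to 94.5 in cDC1s, but also at 1329 to 1456 in pDCs, where Clec10a, Cd209a and Sirpa made up most of the sum. The 6 shared DC genes summed to at least 22248 TPM in each library, all of them above 0. Several sums did not overlap between WT and cKO libraries of a subset, often through a few genes of the list. Lower in cKO libraries were the summed shared DC genes in pDCs (22248 to 27983 TPM, against 31626 to 33471) and in cDC1s (55237 to 56386, against 68815 to 73555). The summed markers of each subset were also lower in that subset itself, by less than the distance to the other subsets. Of the 10 cDC2 markers in cDC2s, 4 lay above WT without overlap and 5 below, beside 16.3% and 19.2% of all genes. Of the 10 cDC1 markers in cDC1s, 3 lay above and 5 below, beside 52.1% and 24.1%. Of the 10 pDC markers in pDCs, 0 lay above and 4 below, beside 10.8% and 16.7%. In pDCs the cDC1 markers were lower (459.3 to 509.1 TPM, against 538.1 to 632.6), and in cDC1s the sum of the pDC markers was higher (285.8 to 286.4 TPM, against 213.5 to 233.7). There 5 of the 10 were above WT without overlap, about the share of all genes, Bst2 most in TPM (mean 121.1 to 199.8). Another 3 were below, Cd300c (38.1 to 14.5), Ccr9 (18.2 to 8.84) and Pacsin1. The summed 12 monocyte and macrophage genes, none at 0, were at 2728 to 3566 TPM in cKO and 1395 to 1938 in WT cDC2s, a gap made mostly by Lyz2 (mean 821.3 to 2125). In cDC2s 5 of the 12 lay above WT without overlap and 1 below, beside 16.3% and 19.2% of all genes. The 1 below was Adgre1 (182.2 to 150.3), while C1qa, C1qb and C1qc overlapped. For cDC1s the sums overlapped, at 486.8 to 514.8 TPM in cKO and 433.5 to 699.95 in WT libraries. There 3 of the 12 lay above WT without overlap and 8 below, beside 52.1% and 24.1% of all genes. In pDCs the same sum was at 5842 to 6032 TPM in cKO and 5011 to 5675 in WT libraries, nearly all of it Ly6c2 (mean 5013 to 5635). Of the 12, 4 lay above WT without overlap in pDCs and 0 below, beside 10.8% and 16.7% of all genes. The 7 T cell genes listed summed to 34.0 to 37.8 TPM in cKO and 13.7 to 16.7 in WT pDCs. There 3 of them, Lat, Cd5 and Lck, lay above WT without overlap, beside 10.8% of all genes. Cd3d, Cd3e and Cd3g were each at 0.94 TPM or less in pDCs. In cDC1s the T cell genes were at 10.65 to 10.7 TPM in WT and 9.07 to 10.49 in cKO libraries. The 9 neutrophil genes summed to 20.2 to 33.5 TPM in cKO and 4.25 to 16.9 in WT cDC1s. Of them 6 lay above WT without overlap, beside 52.1% of all genes, and Ly6g was at 0 in both WT libraries. The 5 platelet genes stayed at 1.26 to 7.02 TPM and the 7 NK cell genes at 0.53 to 6.67 TPM. The 8 erythroid genes ranged from 385.3 to 10737 TPM and overlapped between the genotypes in each subset. The part of these cells in the values of the 3 members was not tested.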

How the data were processed

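RNA had been measured in 16 libraries of sorted splenic DCs. Per the labels and the study's methods, 50-base single-end BGISEQ-500 reads were filtered with SOAPnuke, mapped with Bowtie2 2.2.5 and quantified per gene with RSEM 1.2.12; the submitters' processing notes also name HISAT2 2.0.4 and mm10. The authors deposited TPM values, which have the same sum in each library, and FPKM values for the same genes, in a table for pDCs and a table for cDCs. The transcript reference is not given in the sources used here. Titles tied each of the 32 value columns to its library. Gene IDs were matched to RefSeq (GRCm38.p6), which named 17079 and 17667 genes.

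Genes whose TPM averaged 1 or more were fitted as log2(TPM + 1) with limma 3.58.1 (lmFit, eBayes with trend) in R 4.3.3, in place of the study's count model, whose thresholds were kept. Fold changes on this scale understate changes of low genes. For pDCs 6 libraries were fitted, and the cDC fit held 10 libraries in 4 groups with a shared spread and 5 contrasts. Tests were two-sided, adjusted by Benjamini-Hochberg over all genes tested. Nothing says that the libraries of a group came from separate days, so p-values measure the spread between these libraries. The fits were tested on simulated data.

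Depth was estimated as 18.12 to 20.1 M reads from the steps of the lowest TPM values of single-transcript genes, converted to the FPKM scale. At that depth 3 reads on a transcript of 2000 bases correspond to 0.141 to 0.183 TPM. Read numbers are approximate, and limits cover counting error only. Deviations of same-numbered WT and cKO libraries from their group means correlated across genes at r = 0.310, 0.392 and 0.206 in pDCs, which was taken as pairing; in cDC1s (−0.233) and cDC2s (−0.249 to 0.253) it was not.

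The members and lists were chosen with earlier results of these data known. Text names the members, Itgax, Trim66, at most 5 called genes per list and subset, and the 5 most alike genes per member. Spi1, Irf8, Smad3 in cDC2s, Egr2 in cDC2s, Bcl2l11 in pDCs, Fcgr2b in cDC1s and marker genes were named after their values were seen. Alternatives were a pseudocount of 0.1, no filter, FPKM, median-of-ratios, quantile normalization, no trend, a replicate block, each subset alone and each library left out. One marker list is not reported here. Windows of 50 bases were compared without gaps. Tables were handled with pandas 2.3.3 and numpy 2.4.6 under Python 3.11.15, and figures drawn with matplotlib 3.10.9.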

Additional observations from a re-analysis of the deposited data

Results flagged for a closer look

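No group held more than 3 libraries, so none was examined for a library far from the others. For Trim33, Trim24 and Trim28 no difference between the effects in cDC1s and cDC2s was called. Of the other genes named, 4 had effects that differed between the cDC subsets by the limma contrast of the effects (cDC1 minus cDC2), in which 2.56% of 11411 genes were called. They were Atp1b3 (−1.97, adjusted p 7.80e-04, log2 fold changes 2.78 and 4.76), Fcgr2b (−2.29, adjusted p 0.00367, 0.65 and 2.93), Bcl2l11 (−1.27, adjusted p 0.00507, 0.90 and 2.17) and Rarg (1.16, adjusted p 0.00867, 1.29 and 0.13). Of 18 alternatives, 18 kept this call for Atp1b3, 11 for Fcgr2b, 9 for Bcl2l11 and 3 for Rarg.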

How the results depend on the processing

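Of 315 alternative values for the members' fold changes, 291 kept the direction and the side of the threshold, and all 25 alternative values of residual Trim33 moved by less than 1 SD. With the replicate block Trim33 was called in pDCs at an unchanged log2 fold change of −0.68, and the block changed no other call of a member. The directions that reversed belonged to values that were not called. With median-of-ratios values the cDC1 effect minus the cDC2 effect of Trim33 was −0.052, its WT cDC1 against cDC2 value was 0.043 (0.058 with quantile normalization) and its cKO cDC1 against cDC2 value was −0.0093 (−0.019 with FPKM, and −0.033 to 0.046 with 1 library left out, the lowest without cKO cDC2 library 2). Trim24 in cDC1s was −0.075 with median-of-ratios values and −0.073 with quantile normalization. Itgax in cDC1s was −0.11 with median-of-ratios values, −0.0038 with FPKM and −0.025 to 0.15 with 1 library left out, the lowest without WT cDC1 library 2. With 1 library left out the log2 fold change of Trim28 ran from 0.89 to 0.97 in cDC1s, from 0.37 to 0.70 in cDC2s and from 0.60 to 0.76 between cKO cDC1s and cDC2s. The last value, 0.68, was not called without a filter (adjusted p 0.0193) or without the trend (adjusted p 0.0119). A lone library left in a group was assumed to vary like the others.

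Counts over all genes moved more. In pDCs 119 calls became 335 with the block, 56 without the trend, 24 without a filter and 12 to 97 with 1 library left out, the lowest without WT pDC library 3. In cDC1s 2555 calls became 800 to 2888 with 1 library left out, with 800 and 1111 without cKO cDC1 library 1 or 2 and 1118 without WT cDC1 library 1. In cDC2s 816 became 316 to 907, the lowest without cKO cDC2 library 3, and 444 for the subset alone. The 292 calls for the difference of the effects became 145 with the block and 77 to 282 with 1 library left out, the lowest without cKO cDC1 library 1. Same-numbered cDC1 libraries deviated in opposite directions, and a block with the cDC1 numbers crossed, added after the data were seen, gave 2156 calls in cDC1s (2290 uncrossed), 509 in cDC2s and 138 for the difference. Higher and lower calls in cDC1s were 1806 and 749 as deposited, 1068 and 1070 with median-of-ratios values and 1097 and 977 with quantile normalization. In cDC2s they were 410 and 406, 580 and 379 with median-of-ratios values, and 524 and 335 with FPKM. For the difference they were 138 and 154, 100 and 282, and 101 and 231 with quantile normalization, and for WT cDC1s against cDC2s 1241 and 2371, 1817 and 1715, and 1755 and 1664. Depth limits Trim66 and WT Esr1 in cDC1s.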
